A study of Drosophila melanogaster with 7 samples.

Results

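Nascent transcription was described in the control (ctr) embryos of a Gro-seq experiment in *Drosophila melanogaster*. The libraries were chosen by their label alone: the 3 libraries of wildtype genotype and control treatment, out of 7 in the series, were taken from both deposited tables, and the libraries of the triple mutant were not used. Each ctr library came from a pool of hand-staged cycle 14 embryos of the cross labelled T180xNI746. The study's methods list a TRiP line as control and a maternal tubulin Gal4 driver, but do not spell out this cross. NI746 also stands in the label of the triple mutant cross. The genotype of the mothers is not given beyond the wildtype label. Embryos were aged at 25 °C, nuclei were run on with biotinylated UTP, and the captured RNA was sequenced. The 2 tables hold counts on whole gene bodies and counts on exons and repeat families, for 17753 genes and 9213 repeats.

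Global run-on sequencing labels RNA that engaged polymerases extend in isolated nuclei, so its reads fall over introns and exons alike and follow polymerase rather than stored RNA. The early fly embryo lives on maternal RNA through a series of fast nuclear divisions, and at cycle 14 the divisions stop, the nuclei are enclosed by membranes and the zygotic genome is transcribed at large. The factors that open the genome include Zelda, GAGA factor (the product of Trl) and Clamp, and the first zygotic genes to be read set out the body axes, the cell cycle pause, the furrows of cellularization and the sex of each nucleus.

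The gene-body table held 19761099, 21298129 and 19547254 counts in ctr replicates 1, 2 and 3, and the table with repeats held 29391697, 31509516 and 30528170. Across the 3822 genes averaging 1000 counts or more, the median coefficient of variation over the replicates was 6.76%, and the pairs of libraries differed beyond counting noise (chi-square per degree of freedom of 20.8 to 26.0), so none was treated as a library deposited again. Values are given as mean ± SD over these 3 libraries. CPM is the count after its library is scaled to 1000000 gene-body counts, RPKM is CPM per kb of gene length, and a gene averaging 10 counts or more is referred to as a gene with nascent reads. Levels come from whole embryos, in which fewer transcribing cells and less RNA per cell cannot be told apart.

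Of the 17753 listed genes, 10501 (59.2%) had nascent reads, among them 9360 of the 13927 protein-coding genes (67.2%). No read was counted in any of the 3 libraries for 5442 genes. A count of 0 allows up to 3 counts, or 0.152, 0.141 and 0.153 CPM in replicates 1, 2 and 3 (counting error only, since reads without molecular identifiers are not independent molecules). Counts were spread over many genes. The leading gene of each library, opa in replicates 1 and 3 and hth in replicate 2, held 0.466 ± 0.00484% of the table, the 15 leading genes of each library held 5.65 ± 0.0973%, and the 1000 leading genes held 62.5 ± 0.217%. It took 539, 551 and 534 genes to reach 50% of the counts in replicates 1, 2 and 3, and 3769 ± 17.5 genes to reach 90%.

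Small genes led by read density. The 15 genes of highest RPKM, taken among genes averaging 100 counts or more, were 5 protein-coding genes, 1 long noncoding RNA, 4 tRNAs, 3 snoRNAs, the small nuclear RNA 7SKa and the mitochondrial small ribosomal RNA, and 14 of them were shorter than 1 kb. The upstream stretches of 4 of the densest protein-coding genes and of that long noncoding RNA gene are shown because known promoter motifs can be seen in them. The genes were picked after their RPKM was seen, in place of small RNA genes of the same ranking.

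Each stretch runs from 120 bases before the annotated gene start to 30 bases after it, 5′ to 3′ on the strand of the gene, in the Release 6 (dm6) reference sequence from RefSeq. Capitals mark CAGGTAG, a site bound by Zelda, TATAAA, the TATA box, and GAGAG, bound by GAGA factor, on either strand. The positions are chr2L:16329805-16329954 (plus strand) for CG4440, chr3L:11693015-11693164 (plus strand) for lncRNA:CR43887, chr2L:1518119-1518268 (minus strand) for halo, chr3L:15508941-15509090 (plus strand) for Z600 and chr3L:14972547-14972696 (plus strand) for Brd.
CG4440: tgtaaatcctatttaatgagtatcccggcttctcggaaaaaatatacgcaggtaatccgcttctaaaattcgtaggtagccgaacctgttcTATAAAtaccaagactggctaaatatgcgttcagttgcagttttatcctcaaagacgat
lncRNA:CR43887: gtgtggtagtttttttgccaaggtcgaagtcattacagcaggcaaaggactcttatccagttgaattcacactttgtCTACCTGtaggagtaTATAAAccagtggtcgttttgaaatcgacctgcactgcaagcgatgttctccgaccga
halo: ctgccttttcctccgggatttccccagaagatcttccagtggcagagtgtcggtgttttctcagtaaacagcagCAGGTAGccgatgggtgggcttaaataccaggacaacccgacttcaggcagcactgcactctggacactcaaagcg
Z600: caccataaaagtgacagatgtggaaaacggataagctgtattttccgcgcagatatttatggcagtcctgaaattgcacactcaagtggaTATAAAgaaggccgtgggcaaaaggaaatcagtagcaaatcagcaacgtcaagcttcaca
Brd: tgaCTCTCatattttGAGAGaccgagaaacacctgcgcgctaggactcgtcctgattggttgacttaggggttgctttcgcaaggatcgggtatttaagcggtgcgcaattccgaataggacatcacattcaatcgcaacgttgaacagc
TATAAA began 29, 28 and 30 bases before the annotated start of CG4440, lncRNA:CR43887 and Z600. CAGGTAG began 46 bases before the start of halo, and the same site lay on the other strand of lncRNA:CR43887, 43 bases before its start. In Brd the shown stretch held GAGAG on each strand and neither of the other motifs. In longer windows of 300 bases around the start, CAGGTAG was also found for Z600 and Brd, and not for CG4440. Each motif was searched as an exact word. The close words CAGGTAA and TAGGTAG, which stand unmarked in the stretch of CG4440, were not searched.

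CG4440 had 28494, 27832 and 27639 counts in replicates 1, 2 and 3 over a body of 597 bases, an RPKM of 2324 ± 119. The noncoding RNA gene lncRNA:CR43887, of 527 bases, had 18796, 19525 and 20096 counts (RPKM 1832 ± 108). Halo, whose product directs the transport of lipid droplets and other cargo in the early embryo, had an RPKM of 1334 ± 106, and Z600, a small inhibitor of cyclin-dependent kinase that helps to hold cycle 14, one of 1291 ± 128. Brd, a member of the Bearded family that restrains Neuralized in Notch signalling, had 1098 ± 25.5, and its relatives Tom and Ocho had 1082 ± 33.4 and 623 ± 44.2. All of these exceeded the median of protein-coding genes with nascent reads, an RPKM of 11.7, which is the protein-coding median used below. Over all listed protein-coding genes, those without reads included, the median was 2.04. The medians of gene lists below also take in every member, as do the counts of members above the protein-coding median. Only a minority of all listed protein-coding genes exceed that median, since it leaves out genes without nascent reads. The exact share was not computed. At 3 to 10 kb, 44.9% of listed protein-coding genes had an RPKM of 10 or more, and at 1 to 3 kb 39.2%. List counts above the median are therefore not to be read against an even split.

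Over the windows from 250 bases before to 50 bases after the gene start, CAGGTAG was found in 1.61% of 17410 distinct promoters, and in 31% of the 100 protein-coding genes of highest RPKM. The share was 10% in the next 100 protein-coding genes. GAGAG was found in 49% of the leading 100, 28% of the next 100 and 29.5% of all promoters. TATCGATA, the DNA replication-related element (DRE), was found in 3% of the leading 100, 22% of the next 100, 12.5% of both together and 7.59% of all promoters. It stood in 9.26% of protein-coding promoters and in 14.3% of promoters of genes averaging 100 counts or more, where CAGGTAG stood in 1.63% and 2.11% and GAGAG in 29.7% and 29.2%. TATAAA, a short and frequent word, stood in 44%, 52% and 44.4%. The ribosomal protein genes had CAGGTAG in 0 of 87 promoters and TATCGATA in 26, whereas the gap and pair-rule genes had GAGAG in 18 of 19, CAGGTAG in 5 and TATCGATA in 0. In the 200 genes of highest RPKM of any type, CAGGTAG stood in 15.5%, TATAAA in 45.5%, GAGAG in 43% and TATCGATA in 0.5%. Motifs were searched on both strands as exact words, and these are descriptions of letters in a window, with no test.

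By total counts the order was another one, led by long protein-coding genes. The 15 genes with most counts were all protein-coding, all longer than 10 kb, and 3 of them longer than 100 kb. Opa, which encodes a zinc finger factor of the pair-rule class (chr3R:4852813-4869979), had 90941, 96651 and 91723 counts, or 4611 ± 77.6 CPM. Hth, a homeodomain partner of the Hox proteins that spans 132008 bases, followed with 86236, 99618 and 91103 counts (4567 ± 176 CPM), and lola, a BTB zinc finger gene of many isoforms, with 4347 ± 113 CPM. The first 2 differed by less than the SD of either, and hth was the higher in replicate 2. The other leaders included genes of cell contact and signalling: ed, an adhesion molecule (4010 CPM), robo2, a receptor of Slit (3719 CPM), Delta, the ligand of Notch (3695 CPM), pyd, a junction scaffold (3624 CPM), the heparan sulphate proteoglycan gene Sdc (3539 CPM), nkd, an antagonist of Wingless signalling (3533 CPM), and the kinase gene nmo (2871 CPM). Svil, an actin-binding protein gene (4103 CPM), Ptr (3647 CPM), the chromatin remodeller kis (3555 CPM), wech (3391 CPM) and jigr1 (3128 CPM) made up the 15.

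**Figure D1:**
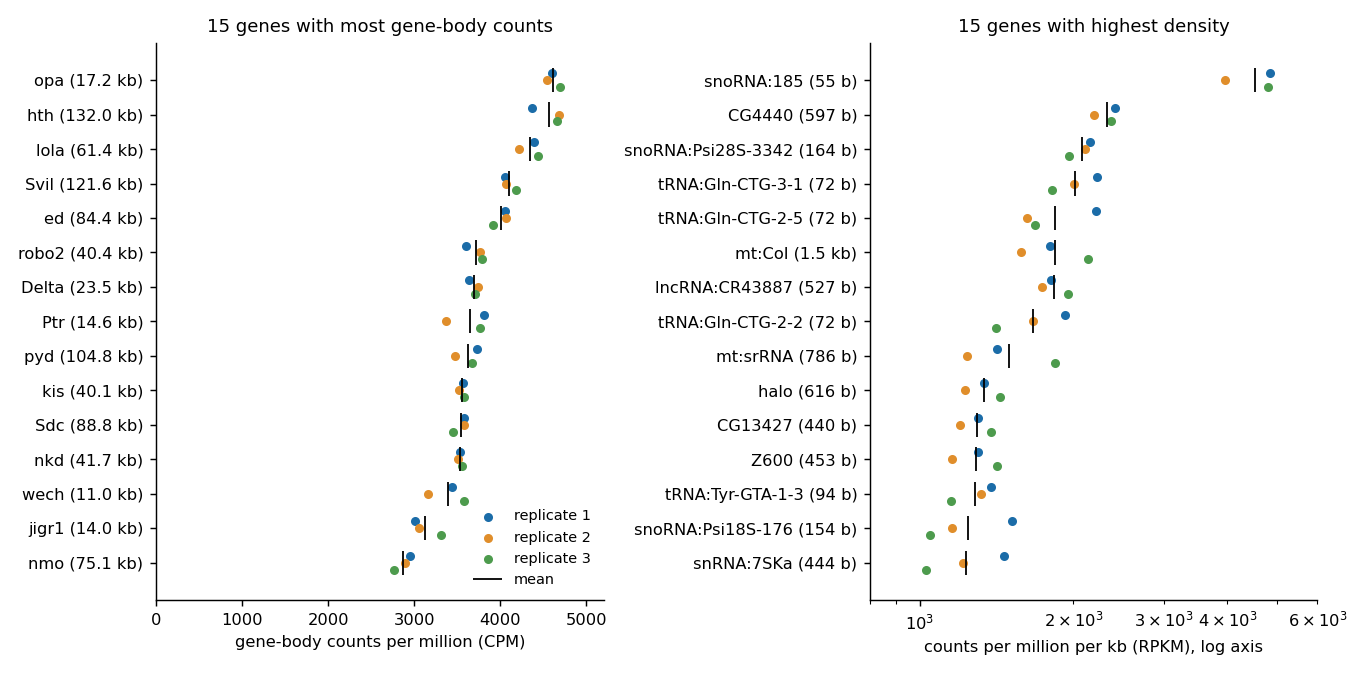
Genes with most nascent reads in 3 ctr libraries. Left, gene-body CPM of the 15 leading genes, from 2871 (nmo) to 4611 (opa); right, RPKM of the 15 leading genes averaging 100 counts or more, on a log axis; points are libraries, black bars their mean, and gene lengths stand in brackets. The order on the left is led by genes longer than 10 kb and the order on the right by genes shorter than 1 kb.

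Genes of axis patterning stood high. All 10 gap genes, which divide the anterior-posterior axis into broad domains, had nascent reads and an RPKM over the protein-coding median of 11.7. Of these, 7 were in the top 10%, here and below that of protein-coding genes with nascent reads (RPKM of 49.1 and higher). Giant (gt) was the highest, with 9965, 11299 and 10343 counts and an RPKM of 281 ± 7.96, followed by tll (208 ± 25.8) and Kr (181 ± 9.88), while cad, which is also supplied by the mother, was the lowest at 22.8 ± 0.582. The 9 pair-rule genes, which turn these domains into stripes, had the highest median of any list (RPKM 269), with 8 in the top 10%. Ftz had 22381, 24779 and 24292 counts (RPKM 614 ± 29.6) and eve 16108, 16325 and 16364 counts (RPKM 546 ± 24.5), and slp2 was the lowest at 35.2 ± 3.18. The difference between ftz and eve was larger than either SD.

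Later tiers of the segmentation cascade had lower list medians. Among 8 segment polarity genes the median RPKM was 29.98 and 6 exceeded the protein-coding median. Ptc, the receptor of Hedgehog, stood at 149 ± 3.52, wg at 42.2 ± 0.448, en at 27.1 ± 3.09 and hh at 13.03 ± 0.697, whereas gsb-n, the neural paralogue of gsb, had 55, 32 and 40 counts. The 8 Hox genes, which give segments their identity, had a median of 5.11 and none in the top 10%. Of these Dfd (16.8 ± 0.707) and Antp (12.7 ± 0.525) were the highest and pb, with 138, 48 and 128 counts, the lowest (0.154 ± 0.0763). By counts rather than density Antp was not low, with 24820, 29035 and 25361 counts spread over 102976 bases. All Hox genes are longer than 10 kb, and long genes were read at lower density. The median RPKM of genes with nascent reads was 3.20 at 10 to 30 kb, 1.17 at 30 to 100 kb and 0.603 beyond. Tier and gene length were not separated here.

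Along the dorsal-ventral axis each list had strong members. The lists were set by role, and the dorsal patterning list also takes in sog, rho and sca. List medians are therefore not levels of separate territories. Of 15 dorsal patterning genes, with a median RPKM of 39.6, zen, a homeobox gene of the dorsal-most cells, was the highest (217 ± 21.2), followed by rho, which activates EGF receptor ligands (132 ± 4.82), and C15 was the lowest (1.86 ± 0.485). The 11 mesoderm genes had a median of 28.9. Sna, the repressor of the ventral cells, had 10485, 10958 and 11105 counts (RPKM 322 ± 16.5), and twi, which acts beside it, had 6670, 7194 and 6482 counts, which over a listed body of 62952 bases gave 5.33 ± 0.0555. The exon counts of twi, 6377 on average, were 0.940 of its gene-body counts. The neuroectoderm list of 10 genes had a median of 16.3, with 6 above the protein-coding median, where l(1)sc (185 ± 4.38), brk (117 ± 4.42) and SoxN (98.7 ± 3.01) led, and ind was listed at 0 in all 3 libraries although it had 2537, 2788 and 2520 exon counts.

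Genes of the cycle 14 pause were read at high density, and those of cellularization varied widely. The cell cycle list had a median RPKM of 83.2 over 9 genes, with 5 in the top 10%. Z600 was the highest, and trbl, which promotes loss of String protein, had 40821, 41543 and 40343 counts (RPKM 381 ± 12.4). Stg, the Cdc25 phosphatase that times the later mitoses, had 83.2 ± 4.41, and twe, its maternal relative, had 17.97 ± 3.73. The cellularization list had a median of 25.9 over 8 genes, with 3 in the top 10%. Its member slam, needed for the growing furrow, had 44251, 41657 and 53560 counts (RPKM 472 ± 81.1), and bnk, which controls contraction at the furrow base, had 4056, 4500 and 5697 (230 ± 46.8). Replicate 3 was the highest for both. Nullo, another gene of the furrow, had 164, 58 and 191 counts (8.19 ± 4.39), Sry-alpha was listed at 0, and dia, RhoGEF2 and pnut stood at 19.4 to 31.6.

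The genes that set the sex of the embryo and adjust the dose of the X were read as well. All 7 sex signal genes lay above the protein-coding median, with sisA, an X-linked signal element, at 283 ± 3.91, upd1 at 103 ± 3.01 and Sxl, the switch that they set, at 73.9 ± 0.619 with 34212, 36782 and 34287 counts. LncRNA:roX1, an RNA of the dosage compensation complex, had 34957, 34985 and 35066 counts (RPKM 317 ± 14.8), against 872, 837 and 873 counts for lncRNA:roX2. Of the genome activation factors, zld had 74.7 ± 2.99 and Clamp 58.8 ± 2.72. Trl had 0.845 ± 0.0401, with 210, 234 and 228 gene-body counts beside 4657 exon counts on average, and its body overlaps 2 listed genes of its strand.

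Genes of basic cell functions were dense as well. Of 87 cytosolic ribosomal protein genes, 84 had nascent reads and 46 were in the top 10%, with a median RPKM of 52.3 and RpL3 as the highest (177 ± 10.2). The general housekeeping list had a median of 70.0, and alphaTub84B (442 ± 42.0) and betaTub56D (193 ± 10.8) led it. Gapdh1, with 2, 0 and 0 counts, and Gapdh2, with 51, 12 and 48, were the exceptions in this list. None of 15 heat shock genes was in the top 10%, and their median RPKM was 4.80, the value of an Hsp70 copy. Hsp68 was the highest (35.5 ± 2.80), and 6 members lay above the protein-coding median, among them Hsp83 (30.3 ± 2.83), Hsp26 (22.1 ± 9.34), Hsp27 (16.3 ± 2.07) and Hsp23 (12.01 ± 3.66). The near-identical copies of Hsp70 cannot be told apart by short reads, and Hsp22 and CG4456, which overlap on the same strand, were listed at 0 beside 791 exon counts each. Of 12 maternal germ plasm and oocyte genes, whose RNAs are loaded into the egg, 8 had nascent reads, beside 67.2% of all protein-coding genes. None was in the top 10%. Their median RPKM of 2.53 was near the 2.04 of all listed protein-coding genes. Of these genes 4 lay above the protein-coding median, stau (31.5 ± 0.999), pgc (29.3 ± 3.62), tud (23.0 ± 1.36) and gcl (14.6 ± 2.04). Osk had 0, 0 and 12 counts, nanos 14, 0 and 14, and bcd 73, 35 and 74.

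The label of cycle 14 embryos was checked with markers of other cells. Of all protein-coding genes 67.2% had nascent reads. Testis markers had nascent reads in 1 of 9 genes, with summed levels of 0.798 to 2.02 CPM and 7 genes at 0. Haemocyte and fat body markers had them in 3 of 10, with 3.84 to 5.16 CPM and 6 at 0 (Hml, NimC1, Lsp1alpha, Lsp1beta, PPO1 and PPO2). Lsp1beta, at 0 by gene body, had 4338 exon counts on average. Markers of the later epidermis and trachea summed to 13.8 to 22.7 CPM, with Cpr65Ec at 0. Among later muscle markers, 588 to 595 CPM in sum, Tm1 alone held 543 CPM, Tm2 was at 0 and Mhc had 1, 4 and 39 counts. Later neuron and glia markers summed to 527 to 566 CPM, of which elav held 401 CPM. The markers of ovarian follicle cells, which make the egg shell, had nascent reads in 14 of 15 genes, a larger share than the 67.2%. By this check they were not absent from the libraries. They summed to 96.7, 81.2 and 162 CPM in replicates 1, 2 and 3, with a median RPKM of 4.92 and 3 genes above the protein-coding median. Cp15 was the highest of them (377, 336 and 714 counts) and Vm32E was at 0. Their part in the other values was not tested.

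**Figure D2:**
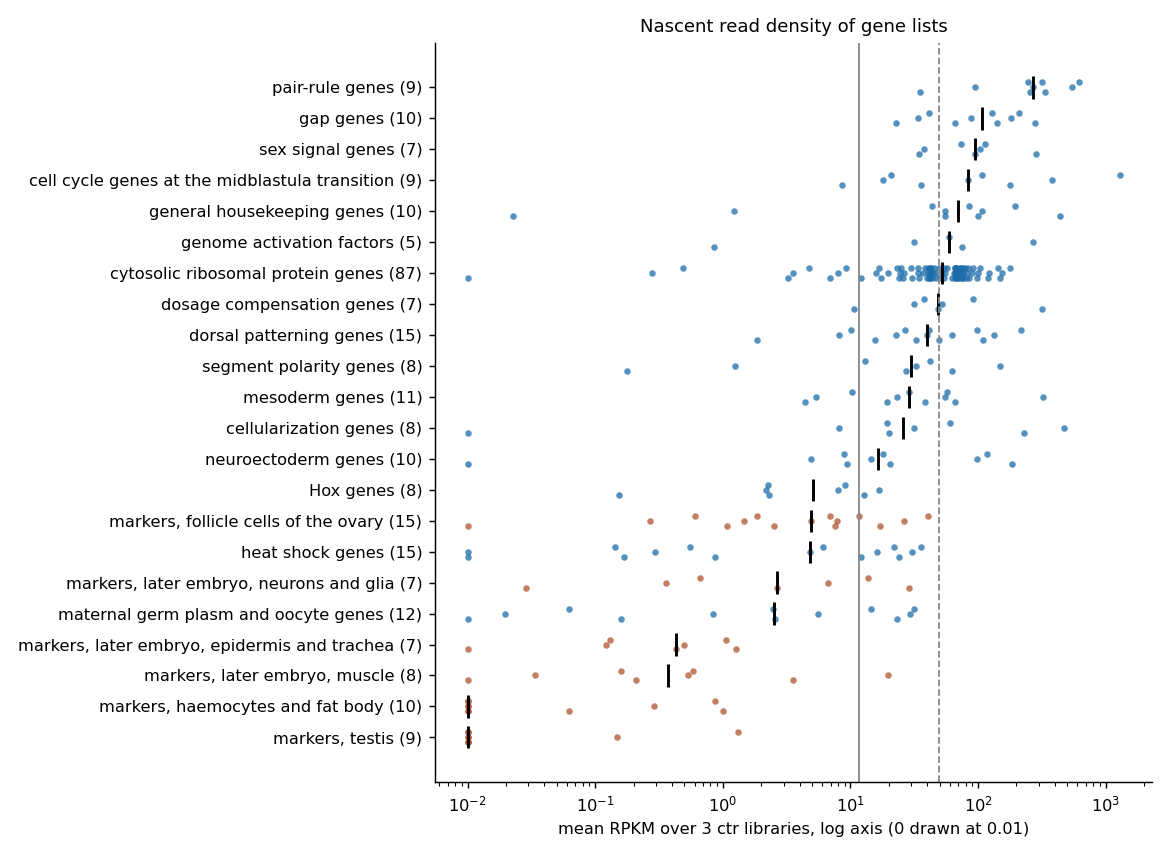
Read density of gene lists in ctr embryos. Each point is the mean RPKM of a gene over 3 libraries on a log axis (0 drawn at 0.01), black bars are list medians, the number of genes stands in brackets, and the grey lines mark the median (11.7) and the 90th percentile (49.1) of protein-coding genes with nascent reads. Pair-rule genes (median 269) and gap genes (108) lie at the top, Hox genes at 5.11, and markers of testis, haemocytes and fat body at 0.

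Per kb of summed gene length, the X was read least among the large chromosome arms. It carried 15.1% of the listed genes and 19.4% of summed gene length, and took 13.4%, 13.5% and 13.2% of the counts in replicates 1, 2 and 3. Chromosome arm 2L took 19.3 ± 0.0287%, 2R 21.2 ± 0.0344%, 3L 19.0 ± 0.0612% and 3R 24.6 ± 0.0767%, against 16.9%, 17.9%, 19.2% and 24.4% of gene length. Per kb of summed gene length the X had 137 counts and the arms of the large autosomes 196 to 234. Its leading genes by counts were Ten-a, a teneurin gene of 291517 bases (1977 CPM), and ec (1846 CPM).

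The density of single X genes against autosomal genes depended on which genes were counted in. Among genes with nascent reads the median RPKM of 1715 X genes was 0.784 ± 0.0123 of that of 8626 genes on 2L, 2R, 3L and 3R, with 0.798, 0.779 and 0.774 in replicates 1, 2 and 3. With at least 100 counts it was 0.701 and with at least 1 count 0.857. Over all listed protein-coding genes with no minimum the order turned, to 1.16 ± 0.0206, and 71.2% of X genes against 66.3% of autosomal ones had nascent reads. X genes were longer, with a median of 2557 bases against 2090. Within length classes the ratio for protein-coding genes with nascent reads was 0.808 ± 0.00895 at 1 to 3 kb, 0.849 ± 0.0171 at 3 to 10 kb and 0.297 ± 0.0207 at 100 kb and longer (17 X genes). Embryos were pooled, and the number of X copies and the density per copy cannot be told apart in these libraries. An exact paired test over 3 libraries cannot give a two-sided p under 0.25, so none was run.

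The small chromosome 4, much of which is packed as heterochromatin, was read over nearly all its genes. Of its 111 genes 100 had nascent reads (90.1%), beside 59.2% of all listed genes. All 79 of its protein-coding genes had them, beside 67.2% of all protein-coding genes. Among protein-coding genes of 10 to 30 kb, the class that holds the median length of those on chromosome 4, 89.8% had nascent reads. Chromosome 4 took 1.56 ± 0.0953% of the counts with 1.09% of gene length, or 283 counts per kb. Pan, which encodes the Wingless effector TCF, had 42467, 37006 and 35976 counts (1909 CPM), and ci, the effector of Hedgehog signalling, had 27295, 24628 and 22990 (1238 CPM). All genes of this chromosome together averaged 315134 counts. The median RPKM of its genes with nascent reads, 7.15 ± 0.391, was below that of the X, 9.12 ± 0.226. Over all listed protein-coding genes with no minimum the order turned, with a median RPKM of 8.58 on chromosome 4 against 2.24 on the X, and chromosome 4 genes were the longer, with a median of 10426 bases.

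The Y chromosome was at the other end. Its 113 genes took between 1257 and 1439 counts per library, which is 0.00657 ± 0.000648% of the table. Kl-3, a dynein heavy chain gene that is needed for male fertility, had 521, 633 and 689 of these counts over 226785 bases (RPKM 0.134 ± 0.0198), and kl-5, a gene of the same family, had 260, 125 and 114. Nascent reads were found for 14 of the Y genes (12.4%), beside 59.2% of all listed genes. Among the 14, the pseudogenes CR46279 (43, 0 and 0 counts) and CR41423 (37, 0 and 0) had reads in replicate 1 alone. Reads without a unique place were removed from this table, and the share of pooled embryos that carried a Y is not given. On the mitochondrial genome 37 of 38 genes had counts past the minimum, and its share of the table was 0.818%, 0.662% and 0.956%. Mt:CoI led it with 54725, 51592 and 64148 counts, and its genes of the plus strand held 60.8 ± 1.08% of the counts.

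**Figure D3:**
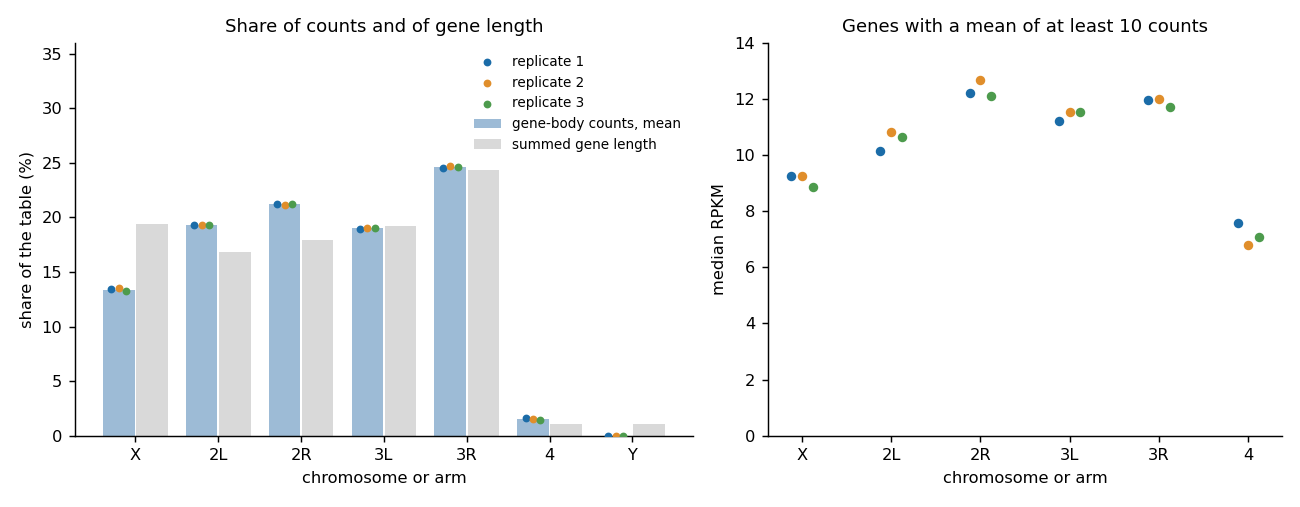
Nascent reads by chromosome. Left, percent of gene-body counts (blue bars, mean; points, libraries) beside percent of summed gene length (grey bars); right, median RPKM of genes averaging 10 counts or more, in each library. The X takes 13.4% of counts with 19.4% of gene length, and chromosome 4 takes 1.56% with 1.09%.

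Gene length was tied to every measure of reads. Nascent reads were found for 31.6% of genes of 0.2 to 1 kb, 61.5% at 1 to 3 kb, 80.3% at 3 to 10 kb and 95.7% at 100 kb and longer (88 of 92). Genes of 3 to 10 kb took the largest part of the counts, 29.8 ± 0.0643%, with 17.8% of gene length, and genes of 100 kb and longer took 3.89 ± 0.0266% with 16.2% of gene length. A fixed minimum of counts lets long genes pass at a lower density, so the densities were also taken with no minimum.

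Long genes were read at lower density than genes of middle length by either route. With the minimum, the median RPKM was 14.9 ± 0.466 at 1 to 3 kb, 11.9 ± 0.404 at 3 to 10 kb, 3.20 ± 0.0312 at 10 to 30 kb, 1.17 ± 0.0559 at 30 to 100 kb and 0.603 ± 0.00512 at 100 kb and longer. The last was 0.0404 ± 0.00148 of the first of these. Over all listed genes the medians were 1.61, 6.10, 2.17, 0.823 and 0.549, so that genes of 3 to 10 kb were the densest class and the ratio of the longest class to 1 to 3 kb was 0.337 ± 0.0174. A small set of very long genes ran against this. Hth, pyd and Svil, all longer than 100 kb, had an RPKM of 34.6 ± 1.34, 34.6 ± 1.30 and 33.7 ± 0.550, against a 90th percentile of 9.06 in their class, and their values differed by less than the SD of hth and pyd. Per library these 3 genes had 71681 to 99618 counts each.

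**Figure D4:**
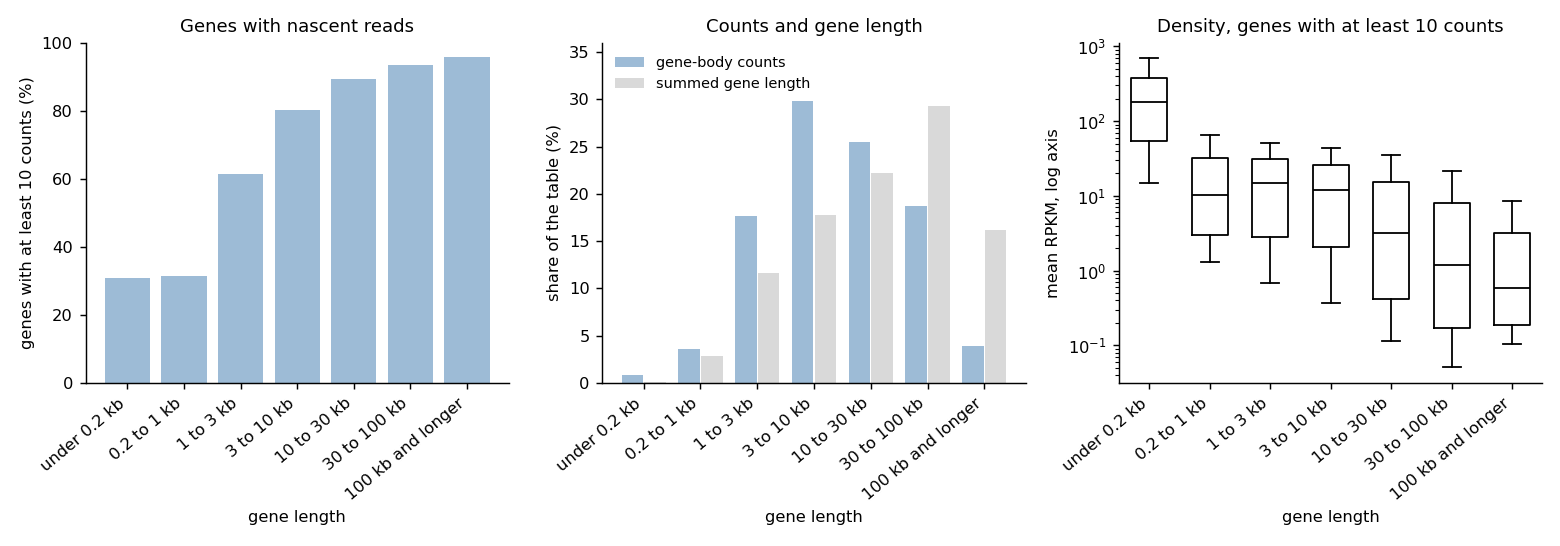
Nascent reads by gene length. Left, percent of genes averaging 10 counts or more; middle, percent of gene-body counts and of summed gene length; right, mean RPKM over 3 libraries of genes with at least 10 counts on a log axis (box, middle 50% of genes with the median; whiskers, the outermost genes within the 10th to 90th percentiles). The share of genes with reads climbs to 95.7%, while the median density ends at 0.603 in the longest class.

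Genes of noncoding RNA held a small part of the counts. Protein-coding genes took 96.2 ± 0.0935%, long noncoding RNAs 2.08 ± 0.0466% (467 of 1899 with nascent reads), tRNAs 0.569 ± 0.0402% (244 of 312), antisense RNAs 0.247 ± 0.000639% (236 of 490), snoRNAs 0.150 ± 0.00867% and snRNAs 0.136 ± 0.0131%. Only 13 of 258 snoRNAs had nascent reads, with a median RPKM of 603. Most snoRNA genes lie within introns of host genes, and a read on 2 listed genes of the same strand is left out by the counter's default. Snorna:185, of 55 bases, was the densest gene of the table (5263, 4641 and 5157 counts, RPKM 4534 ± 496).

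Among tRNA genes the densest were 3 copies for glutamine with the anticodon CTG, at RPKM 2015 ± 203, 1842 ± 326 and 1666 ± 255. By amino acid, with mitochondrial tRNA genes counted in, the serine tRNA genes took most, 688 ± 51.6 CPM over 22 genes. The glutamine genes took 662 ± 108 CPM over 13, a difference smaller than the SD of the second. Near-identical tRNA copies share reads, and reads without a unique place were removed by the mapping quality filter, so values of single copies are uncertain. Among long noncoding RNAs, lncRNA:CR43887 was followed by lncRNA:CR44504 (RPKM 861 ± 78.1), lncRNA:marge (658 ± 11.5) and lncRNA:CR45916 (498 ± 9.13).

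Repeats took 39.0%, 38.9% and 41.3% of the second table in replicates 1, 2 and 3. Most of this was ribosomal RNA, which is made by polymerase I from tandem copies of the rDNA. New and stored ribosomal RNA cannot be told apart in these counts. The rRNA class held 30.5 ± 1.41%, and with the genes on the rDNA scaffold 37.0 ± 1.47%. Without the rRNA class, repeats held 9.23 ± 0.0831%, and with the rRNA class and the rDNA scaffold genes left out of the total too they held 14.6 ± 0.291%. The repeats of the rDNA spacer and of the 5S genes are listed in other classes and stayed in both values. Of the repeat counts outside the rRNA class, transposable elements took 57.0% and simple repeats 22.4%.

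Among transposable elements the LTR class took 2.34 ± 0.0757% of the table, LINEs 1.83 ± 0.0830%, DNA transposons 0.595 ± 0.0291% and rolling-circle elements 0.498 ± 0.0306%. Of their 207 families 201 averaged 10 counts or more, beside 3293 of all 9213 listed repeats. R1_DM, a LINE that inserts into 28S rDNA units, was the leading family outside the rRNA class, with 202865, 247252 and 246866 counts (a CPM of 7612 ± 626, here of all counts in the second table). R2_DM, which inserts nearby in the same gene, had 4641 ± 343 CPM, and both were lowest in replicate 1. NTS_DM, a repeat of the rDNA spacer, had 5902 ± 198, the subtelomeric satellite HETRP_DM 5800 ± 504, and the rolling-circle element DNAREP1_DM, an abundant remnant in the fly genome, 4982 ± 306 CPM. Of the rest, the low-complexity class A-rich had 3739 ± 46.4, the long terminal repeat DM1731_LTR 1982 ± 162 and 5S_DM, the repeat of the 5S rRNA genes, 1391 ± 281 CPM. A family's count sums all copies, among them copies inside introns of transcribed genes, and which copies gave the reads was not tested.

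Simple repeats were spread over many units. Of 8980 listed simple repeats 3069 averaged 10 counts or more, and together they took 2.07 ± 0.0681% of the table. Units of 6 bases held 25.1 ± 0.305% of simple repeat counts, units of 2 bases 17.9 ± 0.414%, and runs of a single base 6.89 ± 0.253%. The repeats (T)n, with 28184 counts on average, and (AT)n, with 23861, were the leading ones. The satellite class took 0.646 ± 0.0451%, and nearly all of it was HETRP_DM, with SAR_DM next at 329 ± 32.4 CPM.

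Reads on exons rose with how much of a gene is exon, though not in proportion. Over 7850 genes with at least 100 gene-body counts, the median of exon counts over gene-body counts was 1.01 ± 0.00357, and 54.4% of genes exceeded 1. A gene's exons lie within its body, so a ratio over 1 shows that the tables differ in more than the regions they count. The gene-body table is restricted to the sense strand and to a mapping quality of at least 3, while the strand setting of the second table is not given in the sources used here and it shares reads that map to several places. In genes that overlap no other gene and consist of exon alone, the ratio was 1.09 ± 0.00908 (634 genes).

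Against this level the ratio fell with the exon part of the gene. In genes that overlap no other, it was 1.04 ± 0.00423 where exons span 75 to 100% of the body, 0.870 ± 0.00563 at 50 to 75%, 0.682 ± 0.00161 at 25 to 50%, 0.485 ± 0.0197 at 10 to 25% and 0.164 ± 0.00514 under 10% (38 genes). Each step was larger than the SD over libraries. In each class under 75% the ratio was above the highest exon share of the class. Exons thus held more counts than their part of the length, and the cause of this excess was not tested. By length of protein-coding genes the ratio was 1.05 ± 0.00459 at 1 to 3 kb and 0.130 ± 0.0118 at 100 kb and longer, where exons made up a median of 2.36% of the body (11 genes). The greater part of the counts of these long genes lay outside annotated exons. Sdc, among the 15 leading genes, had 2596 exon counts on average beside 70760, 76291 and 67547 gene-body counts, and ed 5635 beside 80146, 86589 and 76422.

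**Figure D5:**
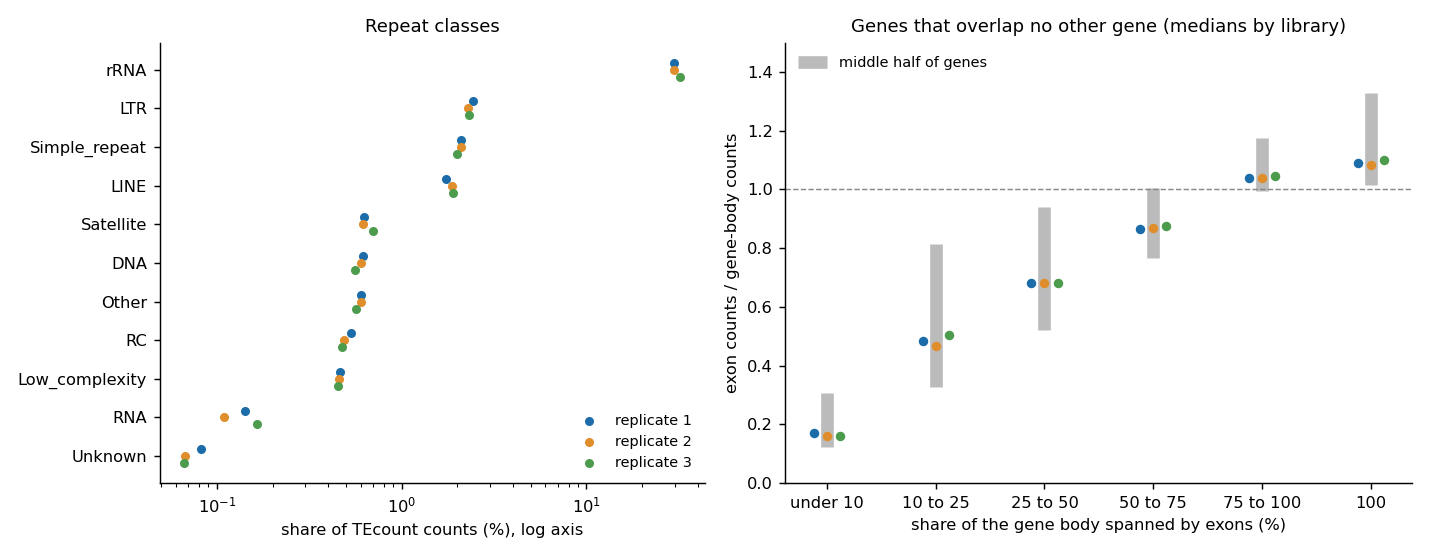
Repeat classes, and exon counts against gene-body counts. Left, percent of the second table taken by each repeat class in 3 libraries, on a log axis; right, median ratio of exon to gene-body counts by library in genes that overlap no other gene, by the share of the gene body that exons span (grey bars, middle 50% of genes; dashed line, ratio of 1). The rRNA class holds 30.5%, and the ratio runs between 0.164 and 1.09.

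Single genes reached far lower and higher ratios. Snap25, a gene of 225026 bases, had 2644, 2516 and 2233 gene-body counts and 12 exon counts on average, and lovit and the noncoding genes lncRNA:CR32773 and lncRNA:CR44357, all longer than 200 kb, were alike with 42, 43 and 22 exon counts. Mt:ND5 had 6308, 6029 and 7326 gene-body counts and 0 exon counts. At the other end, 239 genes had at least 1000 exon counts and under 10 gene-body counts, and 192 of these overlap a listed gene of the same strand. Mira, which lies within Hs6st, had 23080, 23767 and 24765 exon counts and 0 gene-body counts in all 3 libraries, and SNCF, within CG14111, had 15010, 17574 and 17244 exon counts and 0 gene-body counts. Sry-alpha, a cellularization gene listed with the same start and end as Sry-beta, was at 0 in the gene-body table with 12049, 12040 and 13747 exon counts. Of 2883 genes with a same-strand overlap 63.5% had under 10 gene-body counts, against 36.5% of the 14870 without, so a low value of such a gene in the densities above says little about its transcription.

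Genes that overlap a gene of the other strand gave a view of the strand. Of 1628 genes with under 10 sense counts, no same-strand overlap and a partner on the other strand, 421 (25.9%) had at least 100 exon counts, against 178 of 3793 (4.69%) among genes that overlap none. CG12003 had 0, 11 and 0 sense counts and 5187, 6200 and 5580 exon counts, and CG7879 on the other strand around it had 22368, 23336 and 22091 sense counts. For such genes, reads of the gene and of its partner cannot be told apart in the exon counts.

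Replicate values can be compared gene by gene. The 15 leading genes by counts spread by at most 0.18 in log2 CPM (Ptr and wech). Among genes with at least 1000 counts, the widest spreads were 0.92 for tRNA:Tyr-GTA-1-5 (2149, 1810 and 1120 counts), 0.88 for CG8944 (1382, 931 and 744), and 0.84 to 0.85 for CG34376, GramD1B and Cht7, and for all 5 of them replicate 1 was the highest and replicate 3 the lowest. By contrast odd, a pair-rule gene, had 15858, 17157 and 15809 counts and an RPKM of 318 ± 1.24.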

How the data were processed

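Gro-seq libraries of 3 pools of ctr embryos were used, with groups taken from the sample labels. The gene-body counts, as deposited by the authors, are raw sense-strand read counts over whole gene bodies (Ensembl 96, dm6), made after Cutadapt trimming and Bowtie2 (2.3.3.1) local alignment with featureCounts (Subread 1.5.3) at a mapping quality of at least 3. The expected counts of the second table, which the authors made with TEtranscripts, share reads of several places among repeat families and count genes on exons. They were whole numbers as deposited. The strand setting of that table is not given in the sources used here. Neither table was normalized.

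CPM, RPKM (by the listed gene length), shares and medians were computed per library with Python 3.11.15, numpy 2.4.6 and pandas 2.3.3, and given as mean ± SD (n = 3). Scale factors came from edgeR 4.0.16 and DESeq2 1.42.0 in R 4.3.3, and the steps were tested on simulated data. No test was run, since there is only 1 group and an exact paired test over 3 libraries cannot go below a two-sided p of 0.25. The study's methods name the ctr libraries as biological replicates.

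Gene types and current symbols came from a newer Ensembl annotation, by identifier for 17626 genes and by position (at least 90% overlap) for 83, while 44 had none. Named genes were the 15 highest by CPM and by RPKM, the 2 highest by CPM per chromosome, the 3 densest genes of 100 kb and longer, the members of gene lists, the 10 repeats with most counts, and the 5 genes with the highest and lowest exon ratios or the widest spread. The members and lists were chosen with earlier results of these data known. The rule for promoters would have shown small RNA genes, and protein-coding genes and 1 long noncoding RNA gene were shown in their place. Odd, Lsp1beta and CG12003 were named after their values were seen. Alternatives were other count minimums, other gene sets, exon counts, other scaling and leaving out each replicate.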

Additional observations from a re-analysis of the deposited data

How the results depend on the processing

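The X share of gene-body counts was 13.9% without the 10 genes with most counts, 13.7% among counts on the X and the large autosome arms alone (chosen after seeing the data) and 11.7% by exon counts. The exon total takes in genes on the rDNA scaffold, which held 6.43% of the second table, where all genes held 60.2%. The same scaffold genes held 0.118% of gene-body counts, and the X share of exon counts without them was not computed. The ratio of median RPKM of X genes to autosomal genes was 0.857 with a minimum of 1 count, 0.701 with 100 counts and 1.16 over all listed protein-coding genes (chosen after seeing the data), which turned its direction, and it ran between 0.802 and 0.813 with 1 replicate left out. It took 936 genes to hold 50% of exon counts, beside 541 for gene-body counts. The 2 totals differ in make-up, as the leading gene held 5.56% of exon counts and 0.466% of gene-body counts. The median RPKM of genes of 100 kb and longer over genes of 1 to 3 kb was 0.337 over all listed genes, 0.0287 with 100 counts, 0.0424 for protein-coding genes and 0.225 over all listed protein-coding genes (chosen after seeing the data). The direction held under each of these. Repeats held 9.23% of the second table without the rRNA class, and 14.6% with the rRNA class and rDNA scaffold genes left out of the total too (chosen after seeing the data). The table lists no tRNA class, so leaving it out was not run apart. The median exon ratio was 1.04 with at least 10 gene-body counts, 0.941 with 1000, which moved it below 1, and 1.02 without same-strand overlaps. Where a gene minimum, gene set or total was changed, fewer or other genes entered by construction, and other causes were not tested. With 1 replicate left out, the X share ran between 13.3% and 13.5%, the length ratio between 0.0395 and 0.0411 and the repeat share between 39.0% and 40.2%. TMM and DESeq2 scaling moved the CPM of 306 named genes by -0.727% to 0.355%, within 1 SD for each. No paired analysis was possible because no groups of samples were compared, and the ratios between gene classes were already taken within each library. Depth limits genes at 0 to the stated floors.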

Other observations

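The replication-dependent histone genes, which lie in a tandem array of near-identical units, showed the difference between the tables well. All 111 listed copies had nascent reads, and together they had 13357, 16716 and 15176 gene-body counts in replicates 1, 2 and 3, beside 101387, 112722 and 102763 exon counts. Reads without a unique place were removed from the first table and shared in the second.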
